A study of Mus musculus with 10 samples.

Results

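In all, 10 genes that act in cell division, DNA replication, DNA repair and the p53 response were measured in whole colon of mice with colitis. The genes are Melk, Smc2, Ccne2, Rpa3, Rrm2b, Tp53inp1, Nbn, Rad1, Xpa and Fancg. They were found by symbol among 55416 rows of mouse Ensembl gene identifiers, named with GENCODE M21, in which Tp53inp1 is listed as Trp53inp1. All 10 lay inside 3 stretches of the mm10 genome where counts follow gene names, which hold 1415 of the rows, and gene coordinates below are those of M21 on mm10.

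The tested mice lacked Vista, an immune checkpoint protein encoded by Vsir, and the controls were wild type (WT). Mice of both genotypes drank 2% dextran sulfate sodium (DSS), which injures the colonic epithelium, for 7 days before the colon was taken for RNA sequencing. The sources used here do not give age, sex, strain or how the allele was made. A first count table held 3 Vista knockout (KO) and 3 WT libraries, numbered 1 to 3 below, and a second held 2 KO and 2 WT libraries, numbered 4 and 5. The labels call the genotype of KO 1 to 3 a knockdown and that of KO 4 and 5 Vista-/-, while the design text describes Vista-/- mice. That text gives 3 biological replicates per group. No label ties the libraries of the second table to separate animals, and p-values here therefore reflect library-to-library spread, which may be technical.

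Dividing cells of the colonic crypt renew the epithelium, and the cell cycle genes they use are switched on in waves, many of them by E2F factors before DNA synthesis and by complexes bound to the cell cycle homology region (CHR) before mitosis. DNA damage is handled by separate machineries: checkpoint clamps and break sensors signal it, excision and crosslink repair remove it, and p53 switches on genes that arrest the cycle, supply nucleotides or promote cell death. In bulk tissue, fewer cells of a type and less RNA per cell cannot be told apart.

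Each library held 3691322 to 4071238 counts. The closest pair of one genotype, WT 2 and WT 3, had a mean chi-square of 4.06 per row, where counting noise alone gives about 1, so no library was a second deposit of the same counts. That does not show that libraries come from separate animals. Vsir lies outside the 3 stretches, and its row was not used to check the genotype labels. Of genes that practically every cell uses, 10 had totals of 505 to 150169 counts over all libraries inside the stretches, and 10 outside had 1 to 3358. WT 4 and WT 5 stood apart from the other libraries, at 44.3 and 48.3 on the first principal component of all rows tested (37.1% of the variance), against -25.4 to 5.98 for the rest. KO 4 lay lowest on the second component, at -27.5 (18.4% of the variance).

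Every member could be judged: the lowest count in any library was 127, for Rrm2b in KO 1, and the highest was 1037, for Smc2 in KO 4. Levels are given as CPM, the count scaled to a common library total. Per kilobase of exon, which allows levels to be set between genes, Rpa3 was highest at 71.9 ± 5.02 CPM per kb (SD, n = 10 libraries) and lay above the next gene in every library. Nbn (44.5), Melk (42.8), Trp53inp1 (31.6), Smc2 (27.1), Xpa (23.5), Fancg (16.2) and Ccne2 (14.4 CPM per kb) followed, and each overlapped its neighbour in that order. Rad1 (6.69) and Rrm2b (4.86 CPM per kb) were lowest, each apart from the gene above it.

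**Figure D1:**
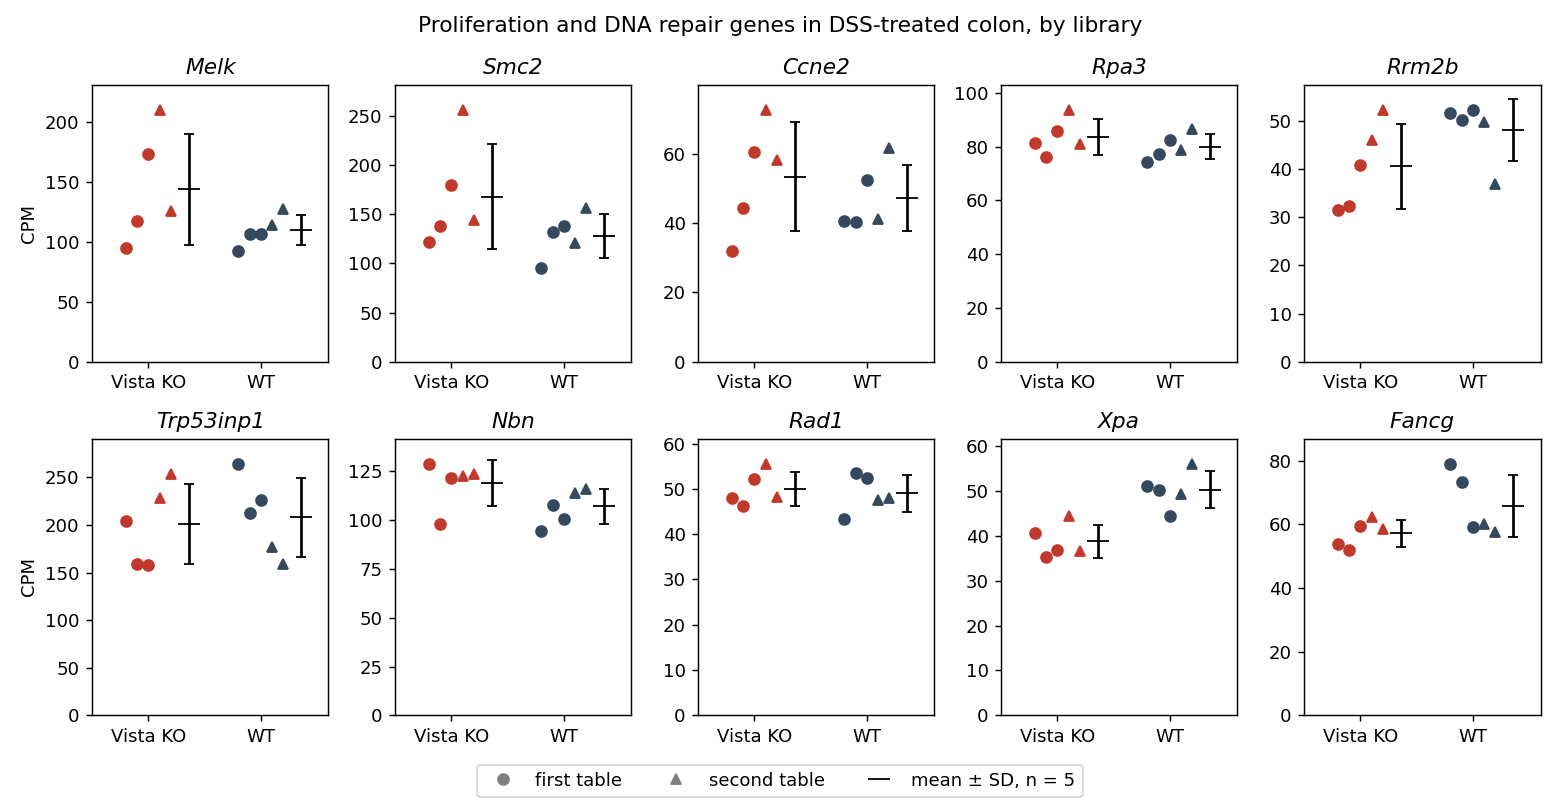
Level of each of the 10 genes in CPM (vertical axis, one panel per gene) in every KO and WT library, with the table marked by the shape of the point. Xpa is the gene whose 5 KO libraries all lie below its 5 WT libraries, from 35.4 to 44.4 CPM against 44.5 to 56.1 CPM.

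Across both tables, with the table as a covariate, none of the 10 genes passed an adjusted p of 0.05 by edgeR's quasi-likelihood test with Benjamini-Hochberg adjustment over all rows. Of all rows tested, 5.63% passed, and of the rows inside the 3 stretches 8.9% passed. Melk, Smc2, Nbn and Xpa had an unadjusted p under 0.05, as did 2273 of 9736 rows, and DESeq2 called none of the 10. The median log2 fold change of KO over WT was 0.07 for the 10 genes, 0.02 for all rows and -0.03 for rows inside the stretches.

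The proliferation genes Melk and Smc2 averaged higher in KO than in WT colon, by an estimated log2 fold change near 0.4 that did not pass the adjusted threshold. Both were most abundant in KO 4. Ccne2 showed a smaller difference with overlapping genotypes.

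Melk encodes a protein kinase expressed in dividing cells (ENSMUSG00000035683, chr4:44300876-44364675, plus strand). Its level was 95.4, 118, 173, 210.3 and 126 CPM in KO 1 to 5, against 92.8, 107, 107, 114 and 128 CPM in WT 1 to 5. KO 3 and KO 4 lay above every WT library, and the other 3 KO libraries lay within the WT range. The means were 144 ± 46.5 CPM in KO and 110 ± 12.7 CPM in WT (SD, n = 5 each). The log2 fold change was 0.42 (SE 0.163, 95% interval 0.06 to 0.77), with an adjusted p of 0.156 in edgeR. Within the first table the log2 fold change was 0.36, with an adjusted p of 0.213 in edgeR. That log2 fold change was 0.13 without KO 3 and 0.55 without KO 1. Over both tables without KO 4 it was 0.27, with an adjusted p of 0.326 in edgeR.

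Smc2 encodes a core subunit of condensin, the complex that compacts chromosomes for mitosis (ENSMUSG00000028312, chr4:52439243-52488260, plus strand). Its level was 122, 138, 180.1, 256 and 144 CPM in KO 1 to 5, against 95.2, 132, 138, 120.3 and 157 CPM in WT 1 to 5. The KO libraries stood in the same order as for Melk: KO 4 was highest, KO 3 came next, and both exceeded all WT libraries. The means were 168 ± 53.6 CPM in KO and 128 ± 22.7 CPM in WT (SD, n = 5 each). KO over WT gave a log2 fold change of 0.40 (SE 0.170, 95% interval 0.03 to 0.77), with an adjusted p of 0.184 in edgeR. Within the first table the log2 fold change was 0.30, with an adjusted p of 0.243 in edgeR. That log2 fold change was 0.17 without KO 3 and 0.18 without WT 1. Over both tables without KO 4 it was 0.22, with an adjusted p of 0.380 in edgeR.

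Ccne2 encodes cyclin E2, which drives entry into DNA synthesis with Cdk2 (ENSMUSG00000028212, chr4:11191351-11204779, plus strand). Its level was 31.8, 44.2, 60.4, 72.6 and 58.2 CPM in KO 1 to 5, against 40.6, 40.4, 52.5, 41.1 and 61.8 CPM in WT 1 to 5. KO 4 was highest and KO 1 lowest of all libraries, so the WT range lay inside the KO range. Its log2 fold change was 0.18 (SE 0.177, 95% interval -0.21 to 0.57), with an adjusted p of 0.557 in edgeR. Of its exon bases, 17.4% overlap Ints8 on the opposite strand, and the sources used here give no strand setting for the counting.

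Rpa3, the smallest subunit of the protein that coats single-stranded DNA in replication and repair, differed little (ENSMUSG00000012483, chr6:8255936-8259173, minus strand). Its level was 81.5, 76.1, 85.8, 93.6 and 80.8 CPM in KO 1 to 5, against 74.4, 77.4, 82.6, 78.7 and 86.4 CPM in WT 1 to 5. KO 4 was again the highest library, and the genotypes overlapped. The log2 fold change was 0.09 (SE 0.078, 95% interval -0.08 to 0.26), with an adjusted p of 0.504 in edgeR.

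KO 4 was the highest library for Melk, Smc2, Ccne2, Rpa3 and Rad1, which is 5 of the 10 genes. It was also highest for 19.4% of all rows tested and 21.1% of those inside the stretches. Cell type markers did not move in one direction with it. The B cell markers Pax5, Cd72 and Lyn summed to 683 CPM in KO 4, within a range of 388 to 683 CPM in KO and 179 to 570 CPM in WT libraries, and Lyn, which myeloid cells also use, made up 465 CPM of it. Pax5 (130.1 CPM) and Cd72 (88.1 CPM) in KO 4 were the highest of the KO libraries and lower than in WT 2 and WT 3 (134 and 148 CPM for Pax5, 117 and 105 CPM for Cd72). The myeloid markers Irf5 and Lyn summed to 574 CPM in KO 4, of which the same Lyn value made up 465 CPM. The ranges of this sum were 310 to 574 CPM in KO and 181 to 396 CPM in WT libraries. T cell markers (Sit1 and Tox) summed to 52.6 to 67.4 CPM in KO and 64.4 to 113 CPM in WT libraries, with KO 4 lowest. Tox made up 48.1 CPM of the KO 4 sum, and averaged 56.0 CPM in KO and 87.5 CPM in WT. Over both tables its log2 fold change was -0.59, which passed with an adjusted p of 0.0427 in edgeR. Sit1, with a lowest count of 3 in a library, was at 4.44 CPM in KO 4 and averaged 3.19 CPM in KO and 2.23 CPM in WT.

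Summed epithelial markers (7 of 12 inside the stretches, none at 0) were at 8020 to 11100 CPM in KO and 9080 to 11900 CPM in WT libraries, with KO 4 lowest. Cdh17, a cadherin of intestinal epithelium, was nevertheless at its highest of all libraries in KO 4 (3823 CPM), where Klf4 (1720 CPM) and the goblet cell gene Spink4 (689.5 CPM) were at their lowest. Fibroblast markers (4 of 7 inside) summed to 648 to 1260 CPM in KO and 740 to 1380 CPM in WT libraries. KO 4 was the highest KO library, and Col1a2 made up 1141 CPM of its sum. Over both tables Adamts12, Galnt12 and Cftr were lower in KO, with log2 fold changes of -1.14, -0.59 and -0.69. Their adjusted p were 0.0127, 0.0227 and 0.0310 in edgeR. The other epithelial and fibroblast markers did not pass, and of these Cdh17, Klf4 and Npr3 were higher in KO. Without WT 4 and WT 5, and without the table covariate, the log2 fold changes of Melk and Smc2 were 0.51 and 0.48, with adjusted p of 0.207 and 0.242 in edgeR. The part of these cell types in the Melk and Smc2 values was not tested.

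**Figure D2:**
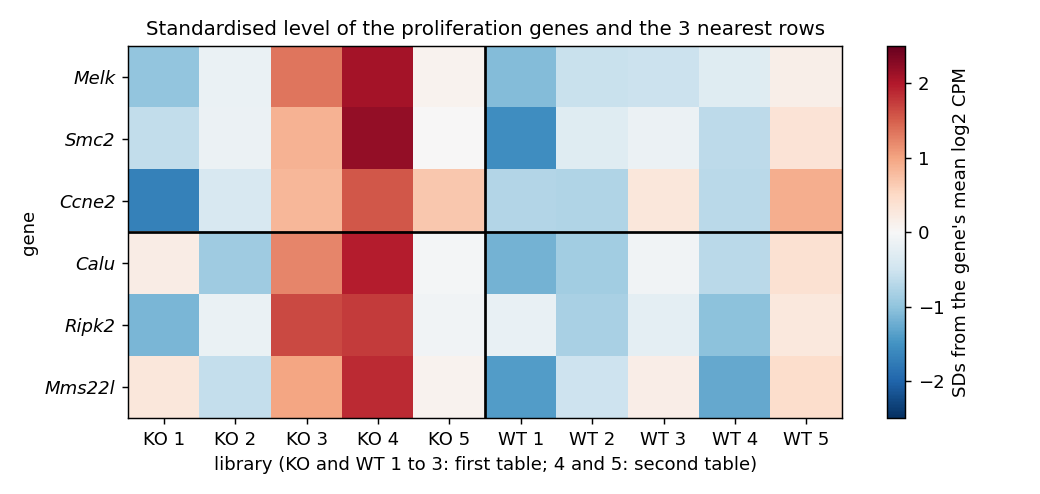
Standardised log2 CPM (colour, in SDs from the gene's mean over 10 libraries) in each KO and WT library (horizontal axis). The genes (vertical axis) are Melk, Smc2 and Ccne2 and the rows most like them. All peak in KO 4, and the rows below Melk, Smc2 and Ccne2 were chosen for likeness to their mean pattern.

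The 3 named protein-coding rows whose pattern over the 10 libraries was closest to the mean of Melk, Smc2 and Ccne2 were Calu, Ripk2 and Mms22l, out of 350 candidates inside the stretches. Their mean absolute differences from it were 0.315, 0.330 and 0.335 SDs of log2 CPM over 10 libraries. Calu, a calcium-binding protein of the secretory pathway, averaged 987 ± 121 CPM in KO and 885 ± 60.4 CPM in WT colon (SD, n = 5 each). Ripk2, a kinase that signals downstream of NOD receptors, averaged 108 ± 24.3 CPM in KO and 92.5 ± 8.49 CPM in WT colon. Mms22l, which acts in the repair of stalled replication forks, averaged 66.1 ± 12.5 CPM in KO and 53.7 ± 8.75 CPM in WT colon.

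Promoter windows from 250 bases before to 50 after the transcription start (RefSeq, GRCm38.p6) were held for 6 of the 10 genes, in 7 windows. They were searched on both strands for the E2F motifs TTTCCCGC, TTTGGCGC, TTTCGCGC and TTTGCCGC, found in 2.26% of 32817 windows, and for the CHR motifs TTTGAA and TTCGAA, found in 19.2% of them. Of the 6 genes, Fancg held an E2F motif and Smc2 held CHR motifs. The windows of Melk (chr4:44300667-44300966, plus strand), Smc2 (chr4:52438971-52439270, plus strand) and Fancg (chr4:43010252-43010551, minus strand) are shown. Smc2 and Fancg hold the matches, and Melk, another proliferation gene, holds none. The search took exact letters only, so sites that differ by a letter were not counted. Capitals mark the matches.
Melk: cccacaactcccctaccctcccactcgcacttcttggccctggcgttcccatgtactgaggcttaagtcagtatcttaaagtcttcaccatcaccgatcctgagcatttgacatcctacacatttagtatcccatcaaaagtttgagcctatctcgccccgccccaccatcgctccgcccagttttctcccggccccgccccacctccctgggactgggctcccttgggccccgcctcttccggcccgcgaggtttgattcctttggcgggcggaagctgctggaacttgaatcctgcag
Smc2: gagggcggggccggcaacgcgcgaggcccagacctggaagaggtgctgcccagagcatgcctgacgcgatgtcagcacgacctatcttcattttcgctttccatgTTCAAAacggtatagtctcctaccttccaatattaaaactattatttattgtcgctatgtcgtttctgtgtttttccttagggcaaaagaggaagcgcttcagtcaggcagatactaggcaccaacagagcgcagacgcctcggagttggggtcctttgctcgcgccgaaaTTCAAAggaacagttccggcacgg
Fancg: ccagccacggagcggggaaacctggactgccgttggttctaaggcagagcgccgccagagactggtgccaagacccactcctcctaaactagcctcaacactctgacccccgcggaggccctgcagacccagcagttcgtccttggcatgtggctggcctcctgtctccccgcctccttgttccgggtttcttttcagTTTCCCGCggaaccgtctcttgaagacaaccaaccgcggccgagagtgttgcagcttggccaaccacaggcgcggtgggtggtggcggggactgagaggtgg
Smc2 held TTTGAA on the minus strand at -145 and at 26 from the start, read as TTCAAA above, and Fancg held TTTCCCGC at -52. A match describes letters in the window and not a bound site.

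The p53 response genes gave unlike values in the 2 tables, a difference that did not pass its own test. Rrm2b fell in KO colon of the first table, where Trp53inp1 was lower in every KO than in every WT library. In the second table Trp53inp1 was higher in both KO libraries, and over both tables neither gene passed the test.

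Rrm2b encodes the p53-inducible small subunit of ribonucleotide reductase, which supplies deoxynucleotides for repair outside S phase (ENSMUSG00000022292, chr15:37923952-37961318, minus strand). In the first table its level was 31.5, 32.4 and 40.9 CPM in KO 1 to 3, against 51.7, 50.3 and 52.2 CPM in WT 1 to 3. All 3 KO libraries lay below all 3 WT libraries, which was also true of Trp53inp1 and Xpa, so that 3 of the 10 genes and 30.6% of all rows had genotypes that did not overlap in that table. KO over WT gave a log2 fold change of -0.52 (SE 0.129, 95% interval -0.81 to -0.24), with an adjusted p of 0.0425 in edgeR. It was the only one of the 10 genes that passed there, where 6.06% of all rows and 10.6% of those inside the stretches passed, and 4 of the 10 and 2563 of 9829 rows had an unadjusted p under 0.05. The call ended in DESeq2 (adjusted p 0.0810), with TMM factors from the rows inside the stretches (adjusted p 0.0566 in edgeR) and without any one of KO 1, KO 2, WT 1, WT 2 or WT 3, where the adjusted p in edgeR reached 0.127. The log2 fold change in those fits was -0.50 in DESeq2, -0.47 with the inside factors and -0.55 to -0.45 without a library.

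In the second table Rrm2b was at 45.9 and 52.2 CPM in KO 4 and KO 5, against 49.7 and 36.8 CPM in WT 4 and WT 5. The genotypes overlapped, with WT 5 lowest. Its log2 fold change was 0.18, with an adjusted p of 0.804 in edgeR. Over all 10 libraries it was -0.23 (SE 0.152, 95% interval -0.57 to 0.10), with an adjusted p of 0.377 in edgeR. An antisense gene, Gm49085, overlaps 8.04% of the exon bases of Rrm2b, and the gene lies 138 kb from the end of its stretch.

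Trp53inp1 encodes a p53 target that promotes cell cycle arrest, cell death and autophagy (ENSMUSG00000028211, chr4:11156431-11174379, plus strand). In the first table its level was 204.7, 159 and 158 CPM in KO 1 to 3, against 264, 212 and 226 CPM in WT 1 to 3. In the second table it was 229 and 253 CPM in KO 4 and KO 5, against 177 and 159 CPM in WT 4 and WT 5. The genotypes did not overlap in either table, but in opposite directions: KO was lower in the first and higher in the second. In that second table Trp53inp1, Nbn, Rad1 and Xpa, which is 4 of the 10 genes, and 44.8% of all rows had genotypes that did not overlap. As log2 fold changes, Trp53inp1 was at -0.39 (SE 0.138) for the first and 0.52 (SE 0.155) for the second table, with adjusted p of 0.107 and 0.203 in edgeR.

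The difference between the tables itself was 0.92 for Trp53inp1 on the log2 scale, second minus first (SE 0.220, 95% interval 0.43 to 1.40), with an adjusted p of 0.0625 in edgeR's interaction test. For Rrm2b it was 0.71 (SE 0.231), with an adjusted p of 0.170 in the same edgeR test. None of the 10 genes passed it, 2 had an unadjusted p under 0.05, as did 1424 of 9736 rows, and 2.05% of all rows and 2.58% of those inside the stretches passed. DESeq2 called 1 of the 10, Trp53inp1, at 0.89 with an adjusted p of 0.0260. Over all 10 libraries Trp53inp1 averaged 201 ± 42.2 CPM in KO and 208 ± 41.4 CPM in WT (SD, n = 5 each), a log2 fold change of -0.02 with an adjusted p of 0.946 in edgeR. That fold change was 0.027 with TMM factors from the rows inside the stretches. The table cannot be told apart from whatever else differed between the library sets, and WT 4 and WT 5 stood apart from the other libraries over all rows. Without both, and without the table covariate, the log2 fold changes of Trp53inp1 and Rrm2b were -0.21 and -0.33. Markers also differed by table. The B cell sum was 453, 452 and 525 CPM in KO 1 to 3, against 372, 569 and 570 CPM in WT 1 to 3. It was 683 and 388 CPM in KO 4 and KO 5, against 212 and 179 CPM in WT 4 and WT 5. Pax5, Cd72 and Irf5 passed the interaction test, at 4.58, 3.08 and 2.00 (adjusted p 0.00377, 0.00566 and 0.0479 in edgeR). The other markers did not pass it, Lyn among them at 0.74 (adjusted p 0.261 in edgeR). The enteric neuron markers went opposite ways in the first table: Tac1 rose (log2 fold change 1.98, adjusted p 0.000145 in edgeR) and Penk fell (log2 fold change -1.25, adjusted p 0.0287 in edgeR). Tac1 and Penk kept these directions in the second table, at 0.72 and -0.699, where neither passed. Over both tables Tac1 was higher and Penk lower in KO, and both passed (adjusted p 0.0083 and 0.0308 in edgeR). The part of these cell types in the p53 gene values was not tested.

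**Figure D3:**
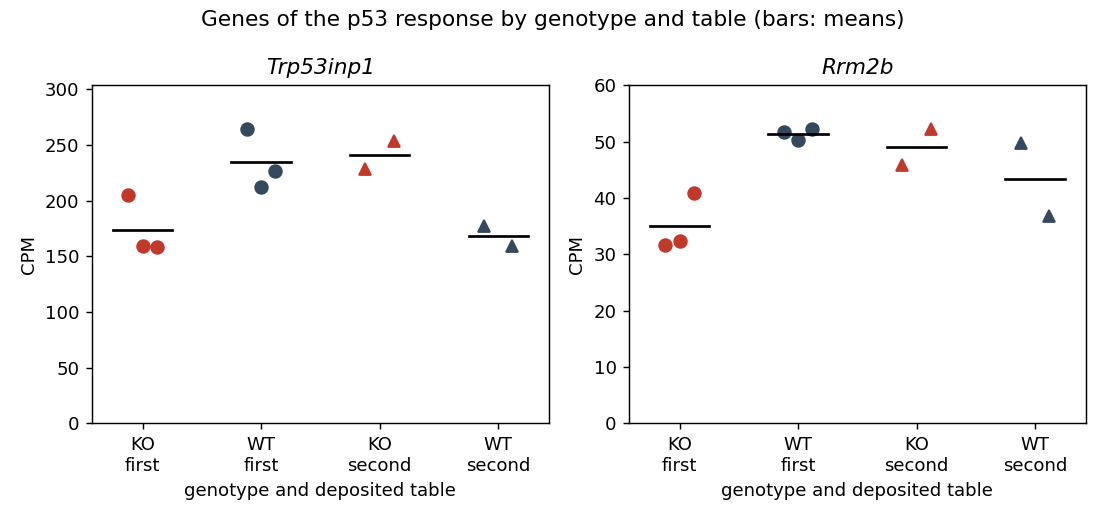
Level of Rrm2b and Trp53inp1 in CPM (vertical axis) in each KO and WT library, split by count table (horizontal axis). The Trp53inp1 points of KO lie below those of WT in the first table and above them in the second.

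Within the second table alone none of the 10 genes passed edgeR's adjusted threshold, against 0.856% of all rows and 1.38% of those inside the stretches. Trp53inp1 had an unadjusted p under 0.05 there, and DESeq2 also called none. The 2 libraries of each genotype left wide intervals: the log2 fold change was 0.48 for Melk and 0.53 for Smc2, with adjusted p of 0.504 and 0.519 in edgeR. They rest on single libraries: without KO 4 the values were 0.0635 for Melk and 0.0623 for Smc2, without KO 5 they were 0.79 and 0.88, and without WT 4 Smc2 was at 0.35.

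Of the repair genes, Xpa was lower in all 5 KO than in all 5 WT libraries, although its adjusted p missed the threshold. Nbn averaged slightly higher in KO colon, Fancg lower in the first table, and Rad1 differed little.

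Xpa encodes a scaffold of nucleotide excision repair, which removes bulky lesions such as those made by ultraviolet light (ENSMUSG00000028329, chr4:46155347-46196311, minus strand). Its level was 40.7, 35.4, 36.9, 44.4 and 36.7 CPM in KO 1 to 5, against 51.1, 50.3, 44.5, 49.4 and 56.1 CPM in WT 1 to 5. The genotypes did not overlap, though KO 4 and WT 3 nearly met. Of the 10 genes only Xpa had genotypes that did not overlap over all libraries, as did 7.22% of all rows. The means were 38.8 ± 3.72 CPM in KO and 50.3 ± 4.14 CPM in WT (SD, n = 5 each). The log2 fold change was -0.34 (SE 0.099, 95% interval -0.56 to -0.13), with an unadjusted p of 0.00514 and an adjusted p of 0.0679 in edgeR. Taken by table it was -0.33 (first) and -0.37 (second), and it was -0.31 without both WT libraries of the second table and without the table covariate. Ncbp1 overlaps 4.07% of the exon bases of Xpa on the opposite strand.

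Nbn encodes nibrin, part of the complex that senses double-strand breaks (ENSMUSG00000028224, chr4:15957925-15992589, plus strand). Its level was 128.9, 98.0, 122, 123 and 124 CPM in KO 1 to 5, against 94.4, 108, 101, 114 and 116 CPM in WT 1 to 5. KO 2 lay between WT 1 and WT 3, and the other 4 KO libraries lay above every WT library. KO over WT gave a log2 fold change of 0.19 (SE 0.083, 95% interval 0.01 to 0.37), with an adjusted p of 0.201 in edgeR.

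Rad1 encodes a subunit of the 9-1-1 checkpoint clamp (ENSMUSG00000022248, chr15:10486018-10499063, plus strand). Its level was 47.9, 46.2, 52.1, 55.5 and 48.3 CPM in KO 1 to 5, against 43.3, 53.6, 52.5, 47.5 and 48.0 CPM in WT 1 to 5. The genotypes overlapped over most of their range, and the gene lies 86 kb from the start of its stretch. Its log2 fold change was 0.06 (SE 0.090, 95% interval -0.14 to 0.26), with an adjusted p of 0.730 in edgeR.

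Fancg encodes a component of the Fanconi anaemia core complex, which acts on DNA crosslinks (ENSMUSG00000028453, chr4:43002343-43010506, minus strand). Its level was 53.9, 51.8, 59.3, 62.2 and 58.5 CPM in KO 1 to 5, against 79.0, 73.4, 59.2, 60.2 and 57.4 CPM in WT 1 to 5. WT 1 and WT 2 stood above all other libraries, and the remaining 3 WT libraries lay within the KO range. The log2 fold change was -0.17 (SE 0.112, 95% interval -0.42 to 0.07), with an adjusted p of 0.372 in edgeR. Within the first table it was -0.32, with an adjusted p of 0.157 in edgeR.

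**Figure D4:**
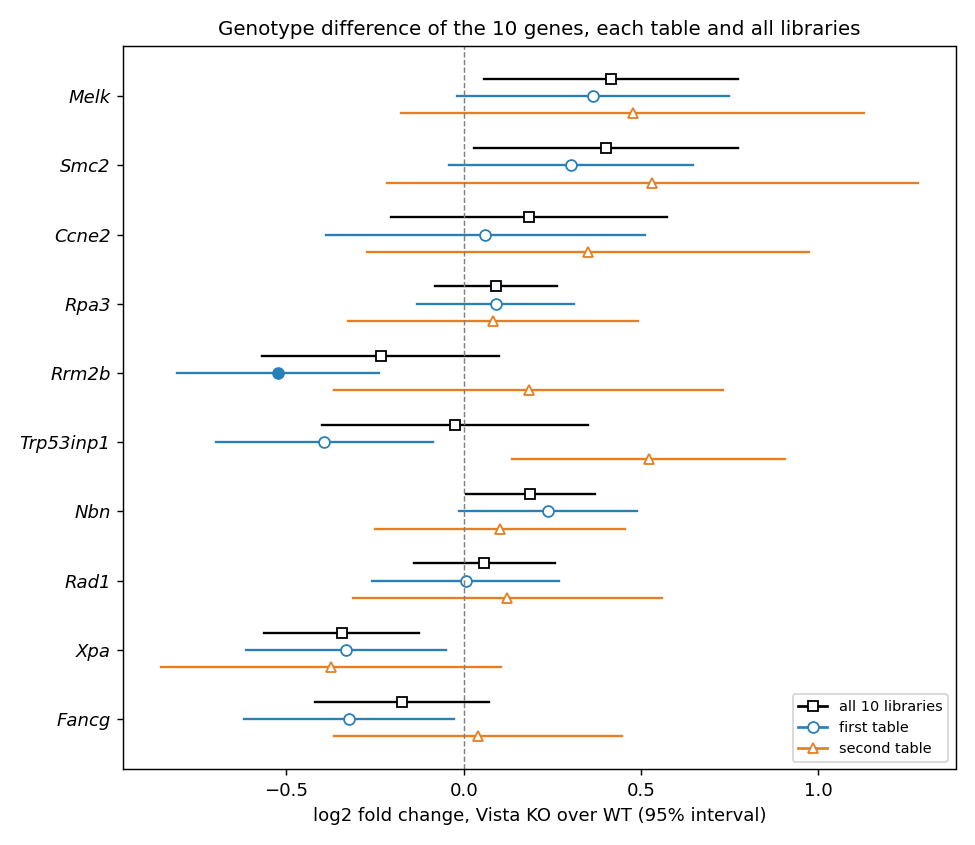
Log2 fold change of KO over WT (horizontal axis) with its 95% interval for each of the 10 genes (vertical axis) over both tables and in each table. Filled points passed an adjusted p of 0.05, which was the case for Rrm2b in the first table, at -0.52.

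Another 12 genes of the cell cycle, DNA repair and p53 lists lay inside the stretches: 5 of 65 listed for the cell cycle and replication, 7 of 92 for DNA repair, 1 of 31 for the p53 response, shared with repair, and none of 44 for mitosis. Over both tables none passed in edgeR, where 5.63% of all rows did, and 3 had an unadjusted p under 0.05, as did 2273 of 9736 rows. In KO 8 were higher and 4 lower, with Sem1 changing sign under another scaling, against 5125 rows higher and 4611 lower. Of the rows inside the stretches, 198 were higher and 229 lower. The median log2 fold change of the 12 genes was 0.08, against 0.02 for all rows and -0.03 for rows inside the stretches. KO 4 was the highest library for 8 of the 12, against 19.4% of all rows tested and 21.1% of those inside the stretches. Among the cell cycle genes with the highest levels, the log2 fold change was 0.22 for Anp32b, a chromatin protein, 0.05 for Orc3 of the origin recognition complex, 0.10 for Ccnc, cyclin C, and -0.32 for Impdh1, an enzyme of guanine nucleotide synthesis. Among the repair genes it was 0.37 for Rad23b, -0.05 for the small acidic protein Sem1, which binds BRCA2, 0.03 for Topors, a ligase that acts on p53, and 0.32 for Mms22l.

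Rad23b, which helps recognise damage in nucleotide excision repair, rose in the first table and was the only one of the 12 to pass in a single table, a share near the 6.06% of all rows and the 10.6% of rows inside the stretches that passed there. Its level was 802, 791 and 831 CPM in KO 1 to 3, against 526, 607 and 592 CPM in WT 1 to 3. Every KO library lay above every WT library there, in a table where genotypes did not overlap for 30.6% of all rows. KO over WT gave a log2 fold change of 0.53 (SE 0.089), with an adjusted p of 0.0106 in edgeR. In the second table it was at 989 and 639 CPM in KO 4 and KO 5, against 697 and 796 CPM in WT 4 and WT 5, with the genotypes overlapping. The log2 fold change there was 0.13, with an adjusted p of 0.880 in edgeR. Over both tables it was 0.37 (SE 0.124), with an adjusted p of 0.101 in edgeR, and it passed without KO 5 (adjusted p 0.00487 in edgeR) and with no filter on low counts (adjusted p 0.0108 in edgeR).

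**Figure D5:**
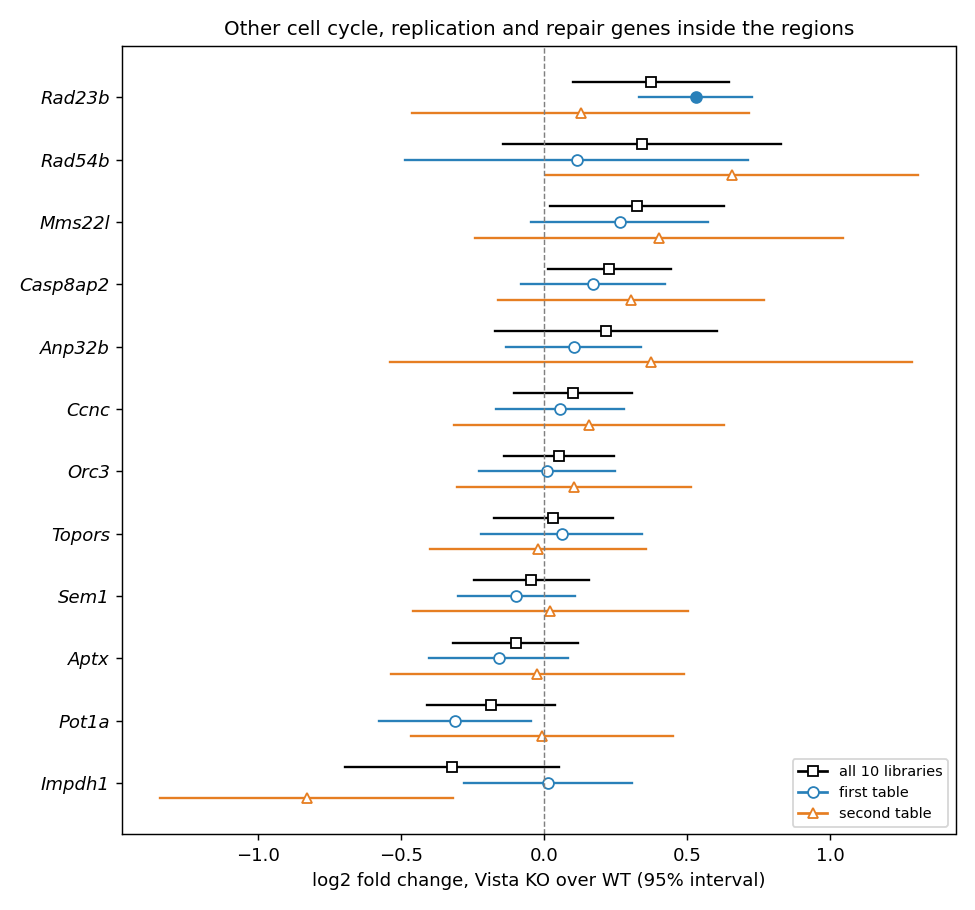
Log2 fold change of KO over WT (horizontal axis) with its 95% interval for the 12 other listed genes (vertical axis) over both tables and in each table. The filled point is Rad23b in the first table, at 0.53, which passed an adjusted p of 0.05.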

How the data were processed

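Values were raw read counts per Ensembl gene, as the authors deposited them in 2 tables. Per the submitters' processing notes, HISAT2 2.2.1 and featureCounts 2.0.1 made the first table, with a build named GRCh38, a human assembly, and HISAT2 and featureCounts 2.0.1 made the second, with mm10. Per the labels, libraries of the second table were sequenced as 50-base single-end reads. The sources used here name neither the annotation nor the strand setting. Names came from GENCODE M21 and were used only inside mm10 chr4:1-59.9 Mb, chr6:1-30.3 Mb and chr15:10.4-38.1 Mb.

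CPM was computed from each library's total. edgeR 4.0.16 in R 4.3.3 ran the quasi-likelihood test with TMM factors and filterByExpr, Benjamini-Hochberg adjustment over all rows tested and a threshold of 0.05. The comparisons were KO over WT over all 10 libraries with the table as a covariate, within each table, and the interaction of genotype and table. The SE was derived from the fold change and its F statistic. DESeq2 1.42.0, other scalings, no filter and leaving out libraries were alternatives, and the fitting was tested on simulated data. Log2 CPM used a pseudocount of 0.5. Other pathway genes were named if they passed over both tables, and otherwise as the up to 4 per list with the highest mean CPM. Rad23b in the first table was named after its value was seen. The genes and lists were chosen with earlier results of these data known. A gene of the DNA repair list is not reported here and was left out of the list's counts.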

Additional observations from a re-analysis of the deposited data

Results flagged for a closer look

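Rrm2b in WT 5 stood apart from the other 4 WT libraries, at 36.8 CPM against 49.7 to 52.2 CPM. Nbn in KO 2 stood apart from the other 4 KO libraries, at 98.0 CPM against 122 to 128.9 CPM. These were 2 of 20 groups examined, where chance alone flags about 1 in 20. Trp53inp1 was lower in every KO library of the first table and higher in every KO library of the second, and the genotype difference of the second table minus that of the first was 0.92 in log2 units (edgeR interaction test, adjusted p 0.0625).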

How the results depend on the processing

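No paired analysis was possible because nothing in the labels links KO and WT libraries of one number. Of 520 values recomputed for the 10 genes, 482 kept their direction and side of the threshold, 7 weakened, 7 strengthened and 24 reversed. Over both tables, no filter gave 2 calls (Melk and Smc2, adjusted p 0.0136 and 0.0166 in edgeR) and no other alternative gave one; the adjusted p of Xpa ran from 0.0508 to 0.331. In the first table the calls were 0 in DESeq2 and with TMM factors from inside the stretches, 2 with no filter (Melk and Rrm2b) and 0 to 1 leaving out a library. In the interaction test, DESeq2, library totals and no filter gave 1 each (Trp53inp1), and leaving out a library 0 to 1; its adjusted p ran from 0.00884 to 0.263.

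The rows called over both tables were 548 as reported, 827 in DESeq2, 1260 with no filter, 201 with a log2 change of at least 1, 78 with neither WT 4, WT 5 nor the table covariate, and 223 to 1028 leaving out a library. In the first table they were 596, then 1322 with no filter and 158 to 456 leaving out a library. In the second they were 85, then 419 in DESeq2, 2 with no filter and 0 to 5. In the interaction test they were 200, then 339, 717 and 57 to 483. With TMM factors from inside the stretches the log2 fold change was 0.0273 for Trp53inp1 and 0.0095 for Sem1; with library totals it was -0.0316 for Rad1 in the first table and 0.025 for Rpa3 in the interaction test; with neither WT 4, WT 5 nor the table covariate it was 0.0125 for Impdh1. Leaving out a library, over both tables it ran from -0.0261 to 0.345 for Anp32b, -0.0135 to 0.0942 for Orc3, -0.0535 to 0.0667 for Topors, -0.137 to 0.0086 for Sem1 and -0.144 to 0.0806 for Trp53inp1. In the first table it ran from -0.0559 to 0.0493 for Rad1 and -0.15 to 0.27 for Ccne2. In the second it ran from -0.0062 to 0.0736 for Fancg, -0.0236 to 0.173 for Rpa3 and -0.029 to 0.415 for Rrm2b. In the interaction test it ran from -0.11 to 0.0907 for Rpa3, -0.179 to 0.0846 for Xpa, -0.30 to 0.43 for Melk and -0.24 to 0.58 for Smc2. In the interaction test DESeq2 put the median of all rows at 0.113, against 0.0098 as reported, while Trp53inp1 was at 0.887 there, against 0.917. The causes were not tested.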
